A study of Mus musculus with 9 samples.

Results

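The cells described here are the scramble control cells of a study of 66cl4, a mouse mammary carcinoma line that the labels call triple-negative breast cancer. They carried a short hairpin RNA with a scrambled sequence, kept under puromycin, and an empty vector selected by mCherry, and they were grown in high-glucose medium with calf serum. Their 3 libraries, labelled biological replicates 1 to 3, were chosen from the 9 libraries of the series by label alone. The other 6 libraries carried a hairpin against Eya3 with the empty vector or with IKK2-SE, an active form of the kinase IKK2, and were not used. Every value below is therefore a level in cells that hold a control hairpin and a control vector, and no group was compared with another. Whether separate transductions gave the replicates is not stated in the labels, so the spread given with each value is that between these 3 libraries and may be technical.

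Most tumours of the mammary gland arise from its epithelium, a bilayer of luminal cells that make milk and basal cells that contract. Epithelial cells are held together by E-cadherin, claudins and desmosomes and carry paired keratin filaments. Cells that have gone through an epithelial-mesenchymal transition carry vimentin, N-cadherin and fibronectin, under transcription factors of the Zeb, Snail and Twist families. Triple-negative is a clinical term for tumours without oestrogen receptor, progesterone receptor and amplified ERBB2, as judged mainly on protein.

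The libraries held 63601403, 77149018 and 73960228 counts over 52208 genes. Levels are given as CPM, the count per 1000000 counts of the library. Where genes are compared with each other, levels are given as TPM, the corresponding measure of transcripts, which also divides by the summed exon length of the gene. A gene was called expressed at 1 CPM or more in each of the 3 libraries, low at a mean of 0.1 CPM or more without meeting that rule, and trace at a mean under 0.1 CPM. By this rule 11851 genes were expressed, which is 22.7% of the table, 4911 were low and 9950 were trace. A further 25496 genes, 48.8% of the table, had no count in any library. A gene without a count could still have a level of up to 0.0140 CPM, the level that 3 counts over the 3 libraries give, a limit that covers counting error only. Of the 21717 protein-coding genes, 10592 were expressed (48.8%) and 5794 had no count (26.7%), and the families below are read against those shares. Protein-coding genes held 98.2% ± 0.0187 (SD, n = 3) of the counts.

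Counts were spread over many genes. The median expressed gene had 33.2 CPM, the upper quartile began at 80.3 CPM and the highest 1% of expressed genes began at 866 CPM. Only 95 genes reached 1000 CPM, and 2324 reached 100 CPM. The 159 leading genes held 25% of the counts and the 858 leading genes held 50%. The 10 leading genes took 6.42% ± 0.0177 (SD, n = 3) of the counts, with 6.44%, 6.40% and 6.41% in the 3 libraries.

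**Figure D1:**
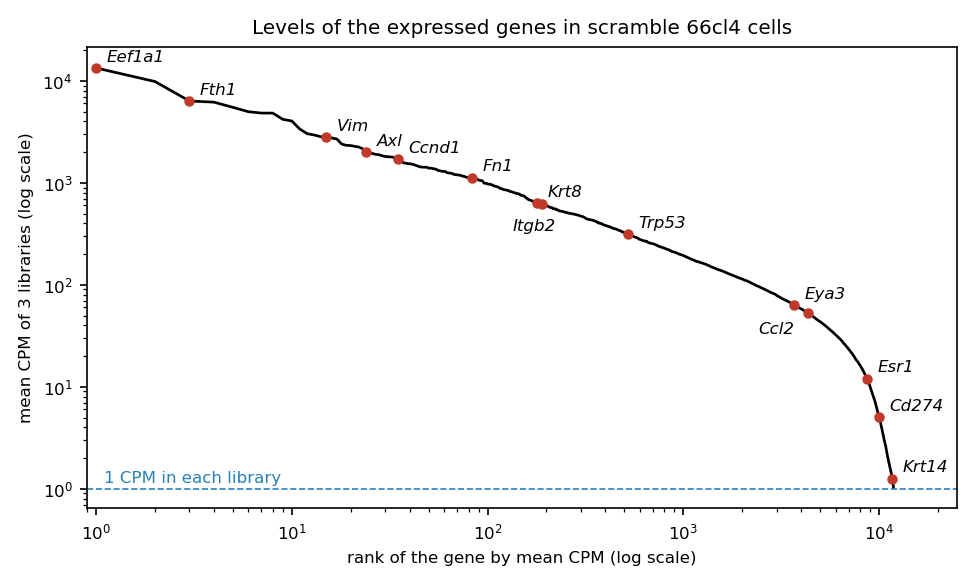
Mean CPM of the 3 scramble libraries (y axis, log scale) against the rank of each of the 11851 expressed genes (x axis, log scale), with 14 genes of the text marked in red and the 1 CPM limit dashed. The curve runs from Eef1a1 at 13382 CPM through Vim, Axl and Ccnd1 to Krt14 at 1.26 CPM, near the limit.

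The most abundant messages encoded the machinery of protein synthesis, glycolysis and the cytoskeleton. Eef1a1, which brings aminoacyl-tRNA to the ribosome, led with 13829, 13098 and 13220 CPM. Eef2, which moves the ribosome along the message, followed with 10136, 9919 and 9508 CPM. Both were among the genes whose libraries differed most beyond counting error, although their SD was 391 and 319 CPM on these means. The next genes by mean CPM were Fth1 (ferritin heavy chain) at 6349.5, Pkm (pyruvate kinase) at 6183, Pabpc1 (poly(A)-binding protein) at 5502, Actb (beta-actin) at 4984 and Hsp90ab1 (a cytosolic chaperone) at 4834. They were followed by mt-Co1 at 4831, Scd2 (a fatty acid desaturase) at 4195 and Ctsl (the lysosomal protease cathepsin L) at 4043 CPM. The remainder of the 20 leading genes by CPM were Gapdh, Rpl4, Aldoa, Eno1, Vim, Rpsa, Ldha, Bsg, Ncl and Npm1.

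Per length the order was different, since short messages gained. Eef1a1 still led with 17739.5 ± 438 TPM (SD, n = 3). Second was Rplp1, an acidic protein of the large ribosomal subunit, with 14851 ± 527 TPM. Of the 20 leading genes by TPM, 7 encoded ribosomal proteins (2 of the 20 by CPM), and 8 genes stood in both sets. Among the others were Lgals1 (galectin-1) with 5207 ± 141 TPM, Mif (macrophage migration inhibitory factor) with 5002 ± 191 TPM, Ftl1 (ferritin light chain) with 4536 ± 244 TPM and Bsg (basigin) with 4372 ± 99.7 TPM. The 10 leading genes held 9.09% ± 0.0765 (SD, n = 3) of all TPM. Gm10736, at 4316 TPM, stood in this set with only 102 CPM because its gene model is very short.

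Glycolytic genes held 2.59% ± 0.109 (SD, n = 3) of the counts, and at the lactate dehydrogenase and pyruvate kinase steps 1 isoform carried nearly all of the level. Of 35 genes of glucose transport and glycolysis, 17 were expressed. Lactate dehydrogenase was nearly all Ldha, with 2797, 2793 and 2479 CPM, against 8 counts in all for Ldhb. In TPM these levels were 2685 and 0.0783. Replicate 3 was the lowest for Ldha, as it was for Gapdh (3513, 3474 and 3110 CPM) and Slc2a1 (366, 341 and 308 CPM), the glucose transporter that led its family. Pkm had 4086 TPM against 0.0312 TPM for Pklr, the liver and red cell form. The transporter Slc2a1 had 319 TPM, whereas Slc2a3 had 0.0186 TPM. Hexokinase was shared between Hk2 (134 TPM) and Hk1 (114 TPM), whose order by CPM was the reverse (242 and 294 CPM). Ldhb shares 27.01% and Pklr 23.2% of their 50-base stretches with other genes, so part of their reads may not have been counted.

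Cytoplasmic ribosomal protein genes held 7.33% ± 0.224 (SD, n = 3) of the counts, and 82 of 88 were expressed. Genes of the mitochondrial genome held 1.20% ± 0.0455. Genes of both families share sequence with copies elsewhere in the genome, and whether their levels depend on this was not tested. The subunit genes mt-Co2, mt-Co3 and mt-Atp6 had 14.3, 12.2 and 10.0 CPM, far under mt-Co1 per length (69.0, 51.4 and 48.6 TPM against 10336 TPM). Between 99.5% and 100% of their 50-base stretches also occur in another gene. Copies on chromosome 1 (Gm10925, Gm28661 and Gm28437) had 25.2, 22.0 and 18.2 CPM. For mt-Nd1 and mt-Cytb, which share no such stretch, the levels were 6514 and 5581 TPM. Among the ribosomal proteins, Rpl24 had 0.554 CPM with 81.7% of its stretches shared, and Rps10 had 3.86 CPM with 56.8% shared. A low level and shared sequence did not always go together. Rpl35 had 755 CPM with 95.1% shared and Rpl5 had 1251 CPM with 93.8% shared, while mt-Atp8 had 1.28 CPM with 0% shared. No source used here says how reads that fit several places were counted. These low values are therefore not read as low messages.

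The lineage lists were expressed in part. Of 25 mesenchymal genes 14 were expressed (56%) and 11 were not, near the 48.8% of all protein-coding genes. Of 26 genes of epithelial junctions and identity 6 were expressed (23.1%), under that share. Vim (vimentin, chr2:13573927-13582826, plus strand) had 2990, 2892 and 2547 CPM, ranking 15 of all genes by CPM. It had the largest excess of spread over counting error among genes of 10 CPM or more, with replicate 3 the lowest. Fn1 (fibronectin) had 1113, 1136 and 1127 CPM. The N-cadherin gene Cdh2 (chr18:16588877-16809246, minus strand) had 241, 252 and 253 CPM. All 3 genes were high in every library. Sparc, a matrix-binding protein, had 363 ± 11.3 CPM, and Spp1 (osteopontin) had 199 ± 1.99 CPM (SD, n = 3).

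The transcription factors of the transition were also present. Twist1 had 94.2, 97.6 and 101 CPM and was the highest of them per length, with 198 TPM. Snai2 had 53.4 TPM, Twist2 16.1, Zeb2 14.2 and Zeb1 9.97 TPM. Snai1 had 0.386 CPM and did not reach the limit. Not all mesenchymal genes were on. The smooth muscle genes Acta2 (0.0261 CPM) and Tagln (0.0431 CPM) were trace, and Thy1, Dcn and Cdh11 had no count. Of the exon length of Tagln 67.9% lies under another gene, so its reads may not have been assigned.

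Cdh1, the E-cadherin gene (chr8:106603351-106670246, plus strand), had 16 counts in all, at 0.126, 0.0518 and 0.0541 CPM. Epcam, an epithelial surface adhesion gene (chr17:87635979-87651129, plus strand), had 10 counts, at 0.0157, 0.0518 and 0.0676 CPM. Both were at the bottom of the range in every library, and neither shares a 50-base stretch with another gene. Desmosome and tight junction genes were likewise trace or without a count, among them Jup (0.0813 CPM), Cldn7, Dsc2 and Dsg2 (no count in any library). Esrp1, a splicing factor of epithelial cells, had no count, and Esrp2 had 0.0417 CPM. Among the 6 expressed members were Tjp1 (369 CPM), a scaffold protein of junctions, Pkp3 (17.2 CPM), and the epithelial transcription factors Grhl2 (36.3 CPM), Elf3 (4.18 CPM) and Grhl1 (3.48 CPM). Grhl2 was present at 37.5, 36.9 and 34.6 CPM beside the near absence of Cdh1 and Epcam.

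Keratins form filaments as pairs of a type I and a type II chain, and Krt8 and Krt18 are the pair of simple epithelia. Only 4 of 54 keratin genes were expressed and 26 had no count. Krt8, the type II chain (chr15:101996698-102004482, minus strand), had 658, 651 and 605 CPM. Krt18, the type I chain (chr15:102028180-102032027, plus strand), had 20 counts in all, at 0.0629, 0.0648 and 0.149 CPM. In TPM the levels were 1077 ± 42.4 and 0.212 ± 0.114 (SD, n = 3), with no overlap in any library. Krt19, another type I chain, had 0.991, 0.570 and 0.284 CPM and was low. The other expressed keratins were Krt80 (37.3 CPM), Krt7 (1.39 CPM) and Krt14 (1.26 CPM). Krt18 shares 0.720% of its 50-base stretches with other genes, whereas Krt8 shares 29.7%, so Krt8 is the member whose count is less certain.

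The 250 bases before the RefSeq start of 4 of these genes are shown because they pair an abundant with a nearly absent gene in 2 cases, Vim with Epcam and Krt8 with Krt18. Each is written 5′ to 3′ on the strand of its gene in build GRCm38.p6. Capitals mark the letters TATAA, searched as TATAA or TTATA to cover both strands, and CAGGTG, searched as CAGGTG or CACCTG, the core of the E-box that Zeb and Snail factors are known to bind. The windows are Vim at chr2:13574061-13574310, Epcam at chr17:87635729-87635978, Krt8 at chr15:102004343-102004592 on the minus strand and Krt18 at chr15:102027966-102028215.
Vim: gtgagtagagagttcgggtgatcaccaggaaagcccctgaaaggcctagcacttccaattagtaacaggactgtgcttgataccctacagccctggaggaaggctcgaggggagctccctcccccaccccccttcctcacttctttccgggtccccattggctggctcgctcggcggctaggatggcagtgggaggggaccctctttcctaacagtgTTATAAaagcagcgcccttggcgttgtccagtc
Epcam: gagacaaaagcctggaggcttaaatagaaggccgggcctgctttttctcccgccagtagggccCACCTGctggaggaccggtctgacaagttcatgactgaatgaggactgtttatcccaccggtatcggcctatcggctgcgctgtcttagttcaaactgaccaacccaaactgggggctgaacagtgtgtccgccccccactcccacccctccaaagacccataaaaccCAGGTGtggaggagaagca
Krt8: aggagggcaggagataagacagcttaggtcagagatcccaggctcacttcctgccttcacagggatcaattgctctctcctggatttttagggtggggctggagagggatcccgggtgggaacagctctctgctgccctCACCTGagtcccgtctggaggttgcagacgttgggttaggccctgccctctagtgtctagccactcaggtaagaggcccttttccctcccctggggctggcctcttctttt
Krt18: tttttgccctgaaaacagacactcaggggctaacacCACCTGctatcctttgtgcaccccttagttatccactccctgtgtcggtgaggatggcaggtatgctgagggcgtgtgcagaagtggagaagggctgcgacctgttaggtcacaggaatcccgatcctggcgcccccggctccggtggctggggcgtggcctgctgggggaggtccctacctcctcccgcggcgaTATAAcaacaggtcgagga
The Vim window holds TTATAA, in which both forms of the first motif overlap, and no CAGGTG. The Epcam window holds CAGGTG and CACCTG once each and no TATAA. Krt8 has CACCTG once, and Krt18 has CACCTG and TATAA once each. Over 14059 protein-coding genes with a single window, 16.7% held CAGGTG in either form and 22.1% held TATAA in either form. The abundant Krt8 and the nearly absent Krt18 thus both carry the E-box letters, and these letters alone do not part the 4 genes by level. A match is a description of letters and not a bound site, and no match says only that the letters are not in the window.

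The mammary lineage genes gave a mixed picture. Of 21 luminal genes 7 were expressed and 5 had no count, and of 17 basal and myoepithelial genes 4 were expressed and 3 had no count. Gata3, a transcription factor of luminal cells, had 59.4, 65.8 and 63.98 CPM. Its usual partner in luminal cells, Foxa1, had no count, and Elf5, a factor of milk-producing progenitors, had 1 count. Csn3, which encodes kappa-casein, had 56.4, 57.6 and 60.1 CPM, while the other milk genes Csn2, Csn1s1 and Lalba had no count and Wap had 0.00432 CPM. Xbp1 (62.4 CPM), a factor of secretory cells, and Erbb3 (26.2 CPM) were also expressed. On the basal side Procr, a surface receptor of mammary stem cells, had 114, 116 and 118 CPM and Nrg1 (neuregulin) had 92.6 ± 4.81 CPM (SD, n = 3). The defining basal genes were nearly absent: Krt5 had 0.0460 CPM, Trp63 0.0278 CPM and Acta2 0.0261 CPM, while Krt14 passed the limit at 1.23, 1.31 and 1.24 CPM.

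**Figure D2:**
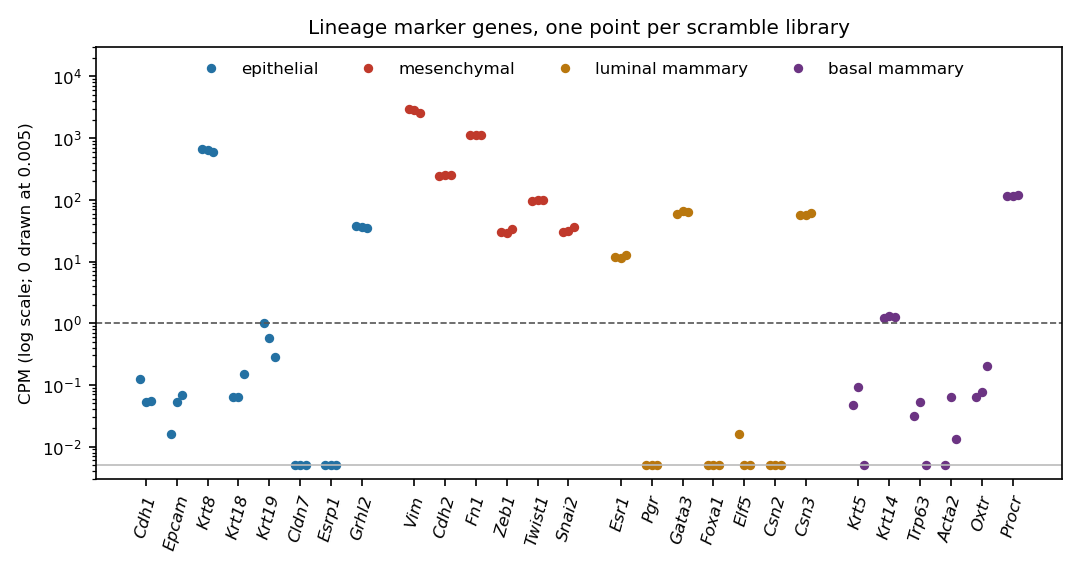
CPM (y axis, log scale, with 0 drawn at 0.005) of 27 lineage genes in the 3 scramble libraries, 1 point per library, coloured by epithelial, mesenchymal, luminal and basal list, with the 1 CPM limit dashed. The 6 mesenchymal genes drawn, of a list of 25 of which 11 were not expressed, lie above 29 CPM in every library, whereas Cdh1, Epcam and Krt18 lie under 0.2 CPM and Krt8 above 600 CPM.

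The label of triple-negative cancer was checked against the 3 receptor genes, as messages only. Pgr, the progesterone receptor (chr9:8899833-8968611, plus strand), had no count. Esr1, the oestrogen receptor (chr10:4611593-5005614, plus strand), had 11.9, 11.4 and 12.7 CPM and passed the limit in every library. Per length it had 2.90 ± 0.165 TPM (SD, n = 3). Erbb2 (chr11:98412470-98437716, plus strand) had 57.8, 57.7 and 53.3 CPM, or 35.7 ± 1.44 TPM. Messages of Esr1 and Erbb2 were thus present and that of Pgr was not detected. Protein was not measured, so these values do not decide the label.

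Receptors came next. Receptor tyrosine kinases carry growth factor signals across the membrane, and 26 of 58 were expressed. Axl, the receptor of Gas6 (chr7:25757273-25788705, minus strand), had 2035, 2002 and 1957 CPM and stood at rank 24 of all genes by CPM. Per length it had 1312 ± 16.7 TPM. Epha2, an ephrin receptor, followed with 408 ± 15.99 TPM, and Ddr2, a collagen receptor, with 79.1 ± 1.43 TPM. The libraries did not overlap between these 3 genes. Ryk (60.6 TPM), Met (57.6 TPM), Ephb4 (54.6 TPM) and Ddr1 (54.1 TPM) lay close together, and the libraries of Ephb4 and Ddr1 overlapped. Igf1r had 36.2 TPM and Erbb2 35.7 TPM, also with libraries that overlap. Egfr, the epidermal growth factor receptor (chr11:16752203-16918158, plus strand), had 16 counts in all, at 0.0786, 0.117 and 0.0270 CPM, so that of the 4 members of its family only Erbb2 and Erbb3 were expressed. Of 11 ligand genes of the EGF family, which bind Egfr or its relatives, 6 were expressed. Hbegf had 116 TPM, Areg 38.6 TPM and Nrg1, which binds Erbb3, 29.6 TPM.

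Among 14 receptors of the TGF-beta family 11 were expressed, led by the type II receptor Tgfbr2 with 562, 569 and 551 CPM. Per length Tgfbr2 had 226 ± 2.95 TPM, Bmpr1a 53.2 TPM, the co-receptor Tgfbr3 34.0 TPM, Acvr1 24.5 TPM and the type I receptor Tgfbr1 19.97 TPM. The 3 members that were not expressed were Amhr2, Bmpr1b and Acvr1c, all trace. Of 34 ligands of the family 7 were expressed and 13 had no count. Bmp4 (95.7 TPM), a bone morphogenetic protein, and Tgfb1 (91.0 TPM) led, followed by Gdf11 (32.3 TPM) and the procollagen protease Bmp1 (17.6 TPM). Tgfb1 had 135, 140 and 142 CPM, a narrow range. Bmp4 had a mean of 65.1 CPM, so the order of Bmp4 and Tgfb1 depends on the exon lengths used.

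Of 28 TNF receptors 13 were expressed. Tnfrsf12a, the receptor of TWEAK, had 333.4 ± 2.90 TPM, and Tnfrsf1a, the main receptor of TNF, had 78.9 ± 2.98 TPM. Tnfrsf9 (69.7 TPM) and Ltbr, the lymphotoxin-beta receptor (59.2 TPM), came next. Of 18 ligands of these receptors only Tnfsf9 was expressed, at 15.3, 14.4 and 15.8 CPM. Tnf had 4 counts, all in replicate 3. The share of receptors expressed, 46.4%, was near the 48.8% of all protein-coding genes, whereas that of ligands was 5.56%. Tnfsf12, the TWEAK gene, had 1 count, but 48.3% of its exon length lies under another gene.

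Of 57 receptors for interleukins, interferons and growth hormone 24 were expressed. Crlf2, the receptor of TSLP, led per length with 92.1 ± 4.92 TPM, and Il6st, the gp130 chain shared by the interleukin-6 family, had 66.6 ± 3.52 TPM. Both chains of the interferon-gamma receptor were present at near equal level, Ifngr2 with 42.9 TPM and Ifngr1 with 40.3 TPM, as were those of the type I interferon receptor, Ifnar1 with 26.3 TPM and Ifnar2 with 25.6 TPM. The partners of gp130 were uneven. Il11ra1, which shares 60.02% of its 50-base stretches with other genes, had 5.52 TPM, Il6ra 4.94 TPM and Osmr 0.946 TPM, while Lifr, the receptor chain for LIF, had no count. Lif itself had 38.0, 37.7 and 37.0 CPM. Il18rap, the accessory chain for interleukin-18, had 29.5, 30.7 and 31.5 CPM, while Il18r1, the chain that binds the cytokine, had 4 counts in all.

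Chemokine receptors were nearly all off. Of 23 genes 1 was expressed, which is 4.35% against 48.8% of protein-coding genes, and 11 had no count. The expressed gene was Ackr3, an atypical receptor that takes up CXCL12, with 22.3, 22.2 and 19.3 CPM. Cxcr4, the signalling receptor of the same ligand, had no count, while Cxcl12 itself had 243, 239 and 229 CPM. Ccr7, at 0.595 CPM, was next.

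Chemokine and cytokine genes are set beside the 48.8% of protein-coding genes that were expressed and the 26.7% without a count. Of 16 CXC and CX3C chemokines 6 were expressed (37.5%) and 4 had no count. Cxcl5, which draws neutrophils, had 135, 149 and 168 CPM and led per length with 267 ± 30.8 TPM. Cxcl1, of similar action, had 85.3, 92.1 and 103 CPM, or 164 ± 16.4 TPM. Cxcl12 had 95.7 ± 2.26 TPM and Cxcl3 51.8 ± 3.58 TPM. The libraries of Cxcl5, Cxcl1, Cxcl12 and Cxcl3 kept this order without overlap. Cxcl2, from the same gene cluster as Cxcl1, had 0.157, 0.104 and 0.189 CPM and was low. Cxcl10 and Cx3cl1 had 12.9 and 7.27 CPM, and Cxcl16 had no count.

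Of 22 CC and C chemokines 4 were expressed (18.2%, against 48.8% of protein-coding genes) and 9 had no count. Ccl2, which draws monocytes (chr11:82035571-82037453, plus strand), had 43.1, 51.0 and 63.3 CPM, or 152 ± 30.6 TPM (SD, n = 3). Its spread was wide for its level, with replicate 3 the highest as for Cxcl5 and Cxcl1. Ccl5 had 10.7, 12.3 and 11.6 CPM, Ccl7 had 1.65 CPM and Ccl25 had 1.58 CPM. Ccl3, Ccl11, Ccl19 and Ccl22 had no count, and Ccl20 had 0.143 CPM. Ccl19 shares 59.1% of its 50-base stretches with other genes, so its reads may not have been counted.

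Interleukins, interferons and colony-stimulating factors numbered 49, of which 13 were expressed (26.5%, against 48.8% of protein-coding genes) and 10 had no count. Csf1, the growth factor of macrophages, had 390.5, 403 and 418 CPM, or 253 ± 10.3 TPM. Il34, the other ligand of the same receptor, had 39.0 ± 3.18 TPM, Kitl (stem cell factor) 30.0 TPM and Lif 28.5 TPM. Csf3, the growth factor of granulocytes, passed the limit with 1.45, 1.39 and 1.24 CPM. The classic inflammatory cytokines were nearly absent, with 3 counts in all for Il6, 9 for Il1a, 3 for Il1b and 8 for Csf2. Ifnb1, the fibroblast interferon, was trace with 0.0287 CPM. Of 9 ligands of the VEGF and PDGF family 5 were expressed, with Vegfa at 173 ± 6.43 TPM, Vegfb at 162 TPM, Pdgfa at 37.8 TPM, Vegfc at 23.4 TPM and Pgf at 6.23 TPM.

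**Figure D3:**
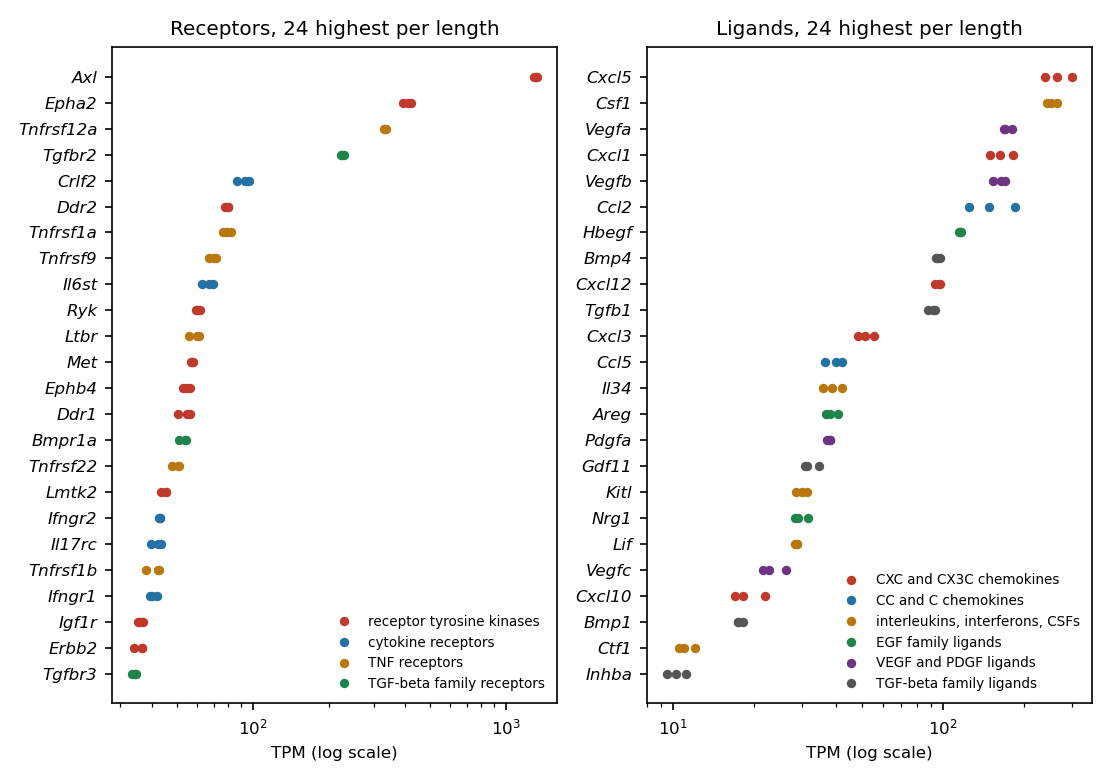
TPM (x axis, log scale) in each of the 3 scramble libraries, 1 point per library, for the 24 receptors (left) and 24 secreted ligands (right) with the highest mean TPM, coloured by family. Axl lies above 1000 TPM, apart from all other receptors, and Ccl2, Cxcl5 and Cxcl1 show wider spreads between libraries than Hbegf or Cxcl12.

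Of the pathways that switch on inflammatory genes, the listed genes of NF-kB and JAK-STAT signalling were nearly all expressed, and the receptors that sense microbes were in part. All 17 genes of NF-kB subunits, IkB inhibitors and IKK kinases were expressed. Nfkbia, the inhibitor IkB-alpha, led per length with 461 ± 9.87 TPM, followed by the subunit Nfkb2 with 348 ± 3.28 TPM and Rela (p65, chr19:5637483-5648130, plus strand) with 133 ± 4.98 TPM. Nfkbib had 72.7 TPM. Ikbkb, the gene of the kinase IKK2 (chr8:22659212-22706589, minus strand), had 47.3, 46.6 and 51.6 CPM. Its 8.41 ± 0.519 TPM rests on a summed exon length of 19078 bases, whereas its longest transcript has 4845 bases. The partner kinase Chuk had 96.5 CPM, or 62.7 TPM, with lengths of 5087 and 3502 bases. The gap between Ikbkb and Chuk in TPM therefore depends on the length used. Of 19 genes of Janus kinases, STATs and SOCS inhibitors 17 were expressed, led by Stat6 (227 TPM), Jak1 (123 TPM), Socs3 (56.4 TPM) and Stat2 (31.3 TPM).

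Of 12 Toll-like receptors 5 were expressed (41.7%, against 48.8% of protein-coding genes) and 5 had no count. Tlr4, the receptor of lipopolysaccharide, had 32.6, 31.1 and 32.0 CPM, and its co-receptor Cd14 had 15.6 ± 0.193 CPM. Tlr3, a sensor of double-stranded RNA, had 18.6 CPM and Tlr2 had 9.26 CPM, while Tlr7 and Tlr9 were trace. Of 18 sensors of nucleic acids and other patterns 12 were expressed (66.7%). Aim2, a sensor of cytosolic DNA, led per length with 52.0 TPM, ahead of the RNA sensor Ddx58 (RIG-I) with 41.5 TPM and the adaptor Sting1 with 35.0 TPM. By CPM Ddx58 was higher than Aim2, with 88.4 against 55.1, so their order depends on the exon lengths used. Pycard, the adaptor that Aim2 uses to form an inflammasome, had 2 counts in all, and Nlrp3 had 0.499 CPM.

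Eya3 (chr4:132638987-132724765, plus strand), the gene whose knockdown the series studies, had 63.99, 64.9 and 62.0 CPM, or 37.2 ± 0.720 TPM. It encodes a phosphatase and coactivator that works with homeodomain proteins. The paralogue Eya1 had 61.4, 62.6 and 66.5 CPM, or 26.9 ± 1.29 TPM, so that 2 of the 4 Eya genes were expressed. Eya2 and Eya4 had 0.0873 and 0.243 CPM. Among the homeodomain partners, Six3 had 20.02 TPM, Six4 9.01 TPM and Six5 6.54 TPM, while Six2 was trace and Six6 had no count. Neither Dach1 (0.556 CPM) nor Dach2 (0.0200 CPM) reached the limit.

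Genes of antigen presentation divided by class. Of 21 genes of MHC class I and its loading 19 were expressed. B2m, the light chain, had 613, 636 and 650.1 CPM, or 2432 ± 88.6 TPM. The chaperone Calr had 1009 TPM, the heavy chains H2-D1 and H2-K1 had 968 ± 33.4 and 400 ± 2.42 TPM, and Canx had 480 TPM. The peptide transporter was lower, with 6.82 TPM for Tap1 and 19.9 TPM for Tap2. Heavy chain alleles differ between mouse strains, so these counts depend on how reads of the line align to the reference, which was not tested. Of 9 class II genes only Cd74, the invariant chain, at 17.5, 16.8 and 16.4 CPM, and H2-DMa, at 4.19 CPM, were expressed. The master regulator Ciita had 0.0600 CPM and the heavy chain genes H2-Ab1, H2-Aa and H2-Eb1 had 0.432, 0.0700 and 0.179 CPM.

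Of 26 ligands of immune checkpoints and natural killer receptors 13 were expressed. Lgals9 (galectin-9) had 135 TPM, Ulbp1, a ligand of the activating receptor NKG2D, 79.8 TPM, Pvr 72.8 TPM and the "do not eat me" signal Cd47 61.2 TPM. Cd274, which encodes PD-L1, had 5.08, 4.82 and 5.19 CPM. Pdcd1lg2 and Cd86 had no count.

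Cell cycle genes were high. Of 23 proliferation genes 22 were expressed, the exception being the germ-cell cyclin Ccna1 without a count. Pcna had 323 TPM, Mcm7 321 TPM, Rrm2 309 TPM and Birc5 280 TPM, and Mki67 had 257 TPM. Of 40 tumour suppressors and oncogenes 35 were expressed. Ccnd1 (cyclin D1) had 1726, 1721 and 1661 CPM, or 1195 ± 18.5 TPM, and its kinase Cdk4 had 509 TPM. Myc had 249.8, 254.5 and 254.9 CPM, or 308 ± 5.33 TPM. Trp53 (chr11:69580359-69591873, plus strand) had 307, 318 and 324 CPM, with its targets Cdkn1a at 147 CPM and Mdm2 at 163 CPM. The inhibitors of Cdk4 at the other locus were not expressed, since Cdkn2a had 12 counts in all and Cdkn2b had none, whereas the paralogue Cdkn2c had 85.5 CPM.

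**Figure D4:**
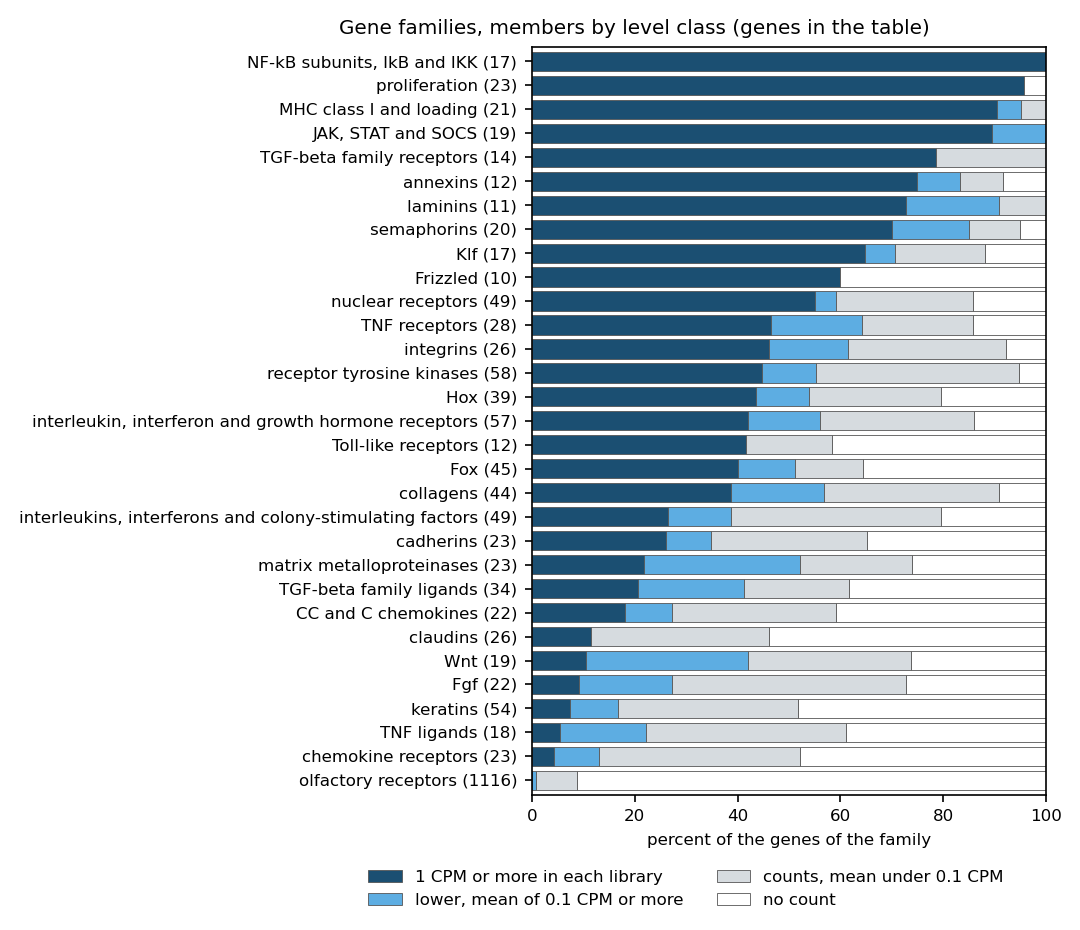
Share of the genes of 31 lists and families (x axis, percent, number of genes in brackets) that were expressed at 1 CPM or more in each scramble library, low, trace or without a count. The families run from NF-kB genes, all 17 expressed, to chemokine receptors with 1 of 23 and olfactory receptors with 1 of 1116.

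Adhesion and matrix families ran from 11.5% expressed (claudins) to 72.7% (laminins), beside 48.8% of all protein-coding genes. Integrins (46.2%) and collagens (38.6%) lay between them. Of 23 cadherins 6 were expressed, with Cdh2 at 102 TPM, Cdh17 at 23.6 TPM, Cdh24 at 16.5 TPM and Cdh13 at 8.49 TPM, and Cdh1 at 0.0557 TPM. Of 26 claudins 3 were expressed and 14 had no count, the 3 being Cldn6 (116 TPM), Cldn12 (101 TPM) and Cldn9 (65.2 TPM). Of 26 integrins 12 were expressed. Itgb2, the beta chain of leukocyte integrins, had 636, 611 and 609 CPM and led the family per length with 670.1 ± 12.5 TPM. Itgb1 had 513 ± 6.31 TPM, Itga3, a laminin receptor chain, 272 TPM and Itgav 82.5 TPM. The alpha chains that pair with Itgb2 were Itgal with 0.245 CPM, Itgam with 0.0216 CPM, Itgax with 0.00883 CPM and Itgad with 0.00524 CPM, none of them expressed. Of the exon length of Itgam 68.7% lies under another gene, so its reads may not have been assigned.

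Of 44 collagens 17 were expressed. Col6a5 led with 471, 473 and 479.7 CPM, or 167 ± 2.71 TPM, ahead of Col8a1 (66.2 TPM), Col18a1 (60.3 TPM) and Col5a1 (49.0 TPM). Of the fibrillar genes that fill connective tissue, Col1a1 was expressed with 4.02 CPM, Col1a2 was trace with 0.0692 CPM and Col3a1 had no count. Of 11 laminins 8 were expressed, led by Lamb1 (159 TPM) and Lama5 (113 TPM). Of 23 matrix metalloproteinases 5 were expressed, led by the membrane-bound Mmp14 (85.8 TPM) and Mmp24 (55.6 TPM), and their inhibitors Timp2 (298 TPM) and Timp1 (140 TPM) were expressed while Timp3 and Timp4 had no count. Timp3 shares 36.3% of its 50-base stretches with another gene.

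The transcription factor families named here ran from 21.1% expressed (Sox) to 64.7% (Klf), beside 48.8% of all protein-coding genes. Hox genes (43.6%), Fox genes (40%) and nuclear receptors (55.1%) lay between them. Of 39 Hox genes 17 were expressed, with Hoxb9 at 84.1 TPM, Hoxb7 at 47.2 TPM, Hoxb6 at 41.0 TPM and Hoxa7 at 34.7 TPM. Of 19 Sox genes 4 were expressed and 10 had no count, with Sox4 at 96.3 TPM and Sox12 at 39.5 TPM. Of 45 Fox genes 18 were expressed, led by Foxf1 (216 TPM), a factor of mesenchyme, and Foxm1 (132 TPM), a factor of dividing cells. Of 17 Klf genes 11 were expressed, led by Klf5 (173 TPM) and Klf6 (129 TPM). Of 49 nuclear receptors 27 were expressed, led by Nr1h2 (83.3 TPM), Ppard (73.6 TPM), Nr1d1 (55.1 TPM) and Nr1d2 (53.6 TPM). The glucocorticoid receptor Nr3c1 had 50.2 TPM.

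Signalling families differed in the share of genes expressed. Of 19 Wnt genes 2 were expressed, Wnt7b with 51.8 CPM and Wnt9a with 5.66 CPM, while 6 of 10 Frizzled receptors were expressed and the other 4 had no count. Of 22 Fgf genes 2 were expressed, Fgf10 with 8.71 CPM and Fgf11 with 2.02 CPM. Of 14 Notch receptors, ligands and targets 6 were expressed, and Notch2 had 147, 163 and 156 CPM against 0.596 CPM for Notch1. Of 20 semaphorins 14 were expressed, led by Sema6b (81.6 TPM) and Sema3e (64.5 TPM), and 6 of 8 ephrins. Annexins, galectins and S100 proteins, which bind calcium, lipids or sugars, gave some of the highest levels per length: Lgals1 had 5207 TPM, S100a11 4048 TPM, S100a6 1664 TPM and Anxa2 878 TPM. Of 16 S100 genes 6 were expressed, and the neutrophil pair S100a8 and S100a9 were at 0.125 CPM and without a count.

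Families of other tissues were nearly silent. Of 1116 olfactory receptor genes 1 was expressed, 0.0896% against 22.7% of all genes, and 1018 had no count. Of 10 embryonic stem cell factors only Klf4 was expressed (13.7 CPM). None of 8 Y-linked genes was expressed, and 7 had no count. Xist, which silences the inactive X chromosome, had 7 counts in all.

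Markers of other cell types were examined as whole lists. None of 13 lymphocyte markers was expressed and Ncr1 and Cd8a had no count. Of 17 macrophage and myeloid markers 4 were expressed, Lyz2 (17.4 CPM), Cd14 (15.6 CPM), Cd68 (14.7 CPM) and Mrc1 (6.10 CPM), while Adgre1 had no count, Ptprc had 5 counts and Csf1r had 0.0837 CPM. Of 10 endothelial markers 1 was expressed, Cdh5 with 4.80, 4.33 and 4.15 CPM, and the defining Kdr had 4 counts. Of 12 fibroblast markers 3 were expressed, Pdgfra (48.7 CPM), Col1a1 (4.02 CPM) and Pdgfrb (1.26 CPM), and Dcn had no count. Of 17 markers of muscle, nerve, liver and fat 2 were expressed, Des (10.2 CPM) and Syt1 (3.37 CPM), and Alb, Myod1 and Hbb-bs had no count, though 65.8% of the 50-base stretches of Hbb-bs occur in another gene. Of the markers taken as defining for these cell types, Lyz2, Cd68, Cdh5, Pdgfra, Pdgfrb and Col1a1 were expressed and the others were not. The summed levels of the lists ran from 0.393 to 0.527 CPM over the libraries for lymphocytes, 53.0 to 56.4 CPM for myeloid cells, 5.21 to 6.15 CPM for endothelium, 53.0 to 55.2 CPM for fibroblasts and 13.6 to 15.7 CPM for the other tissues. Whether the expressed markers come from the line itself or from other cells was not tested.

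The libraries agreed closely. Over the 9011 genes of 10 CPM or more, the median SD between libraries was 3.44% of the mean, where counting alone would give 1.68%, and 267 genes had an SD over 10%. Replicate 3 stood somewhat apart, since the chi-square divided by its degrees of freedom was 11.6 against replicate 1 and 8.31 against replicate 2, beside 3.62 between replicates 1 and 2. The libraries were counted as 3 samples. Without replicate 3 the median SD fell to 2.07% of the mean. Among the 10 genes with the largest excess of spread over counting error, namely Vim, Gapdh, Ldha, Eef1a1, Eef2, Ncl, Ctsl, Serbp1, Gm7993 and P4hb, replicate 3 was the furthest from the others in 8. Ncl had 2237, 2249 and 2513 CPM and Serbp1 1103, 1160.1 and 1309.5 CPM, higher in replicate 3, unlike Vim and Gapdh. An SD over 20% of the mean was found in 3 genes, mt-Nd6 (57.2, 72.4 and 93.3 CPM), mt-Co3 and Malat1 (110.0, 115 and 161 CPM).

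Promoter windows of the genes differed with their level. CpG content is given as the number of CpG observed over that expected from the C and G of the window, since many promoters of widely used genes lie in CpG islands. Its median was 0.833 over 1510 genes of 100 CPM or more, 0.774 over 4147 genes of 10 to 100 CPM and 0.619 over 1114 expressed genes under 10 CPM. It was 0.380 for low genes, 0.329 for trace genes and 0.175 for 4022 genes without a count. The letters TATAA, in either form, stood in 10.9% of the windows of the first class and 40.0% of those without a count, against 22.1% of all. The share with CAGGTG in either form ran from 10.4% in the first class to 22.2% in trace genes and was 17.9% in genes with no count, against 16.7% of all. The median GC content fell along the classes from 62.4% to 44.8%, and its part in these shares was not tested. Vim and Krt8, both abundant, had CpG ratios of 0.376 and 0.143, under the lower quartile of 0.685 of their class.

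**Figure D5:**
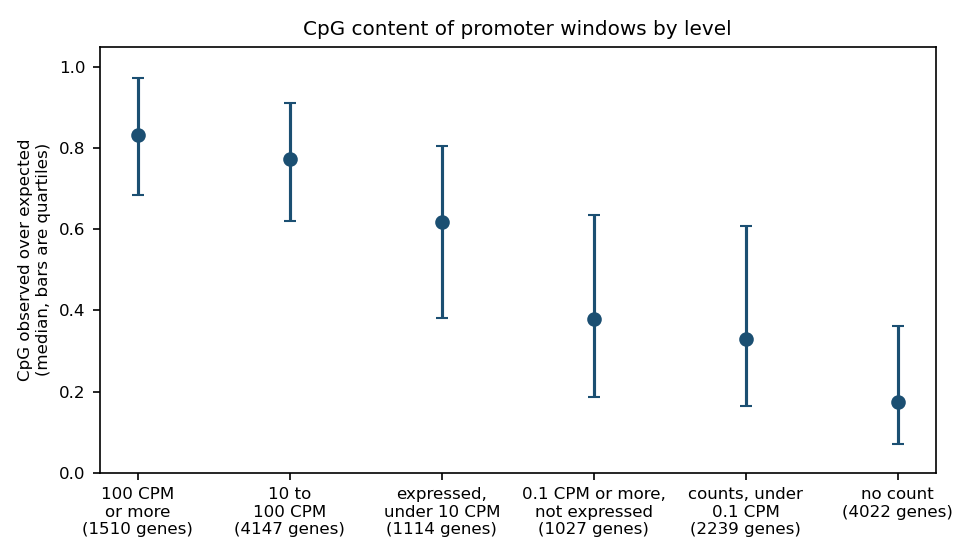
Median CpG observed over expected (y axis) in the 250 bases before the start of protein-coding genes with a single RefSeq window, by level class (x axis, number of genes in brackets), with bars from the lower to the upper quartile. The median falls from 0.833 in genes of 100 CPM or more to 0.175 in genes without a count, and the quartile ranges of neighbouring classes overlap.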

How the data were processed

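Messenger RNA of 66cl4 cells was sequenced after column extraction and a kit for mRNA libraries, as the labels' protocols say. The authors deposited a table of raw, unscaled counts for each gene symbol in each library. The submitters' processing notes name FastQC, MultiQC, STAR and mm10. Counter, annotation and strand setting: not given in the sources used here. Overlapping, antisense and near-identical genes may therefore share or lose reads. Of the table, 6 columns of other libraries were not used.

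Counts were divided by library totals in Python 3.11.15 with pandas 2.3.3 and numpy 2.4.6. TPM used the exon union of GENCODE M21, which matched 96.6% of symbols (504 through an older symbol). The order of genes per length depends on this choice. The longest transcript was tried as length only for the share of the 10 leading genes. Shared sequence is the share of 50-base stretches of a gene's longest transcript found in a transcript of another gene. Promoter windows are from RefSeq (GRCm38.p6). Alternatives used edgeR 4.0.16 and DESeq2 1.42.0 in R 4.3.3 for scaling only. No test was made, since there is 1 group. The code was tested on simulated counts.

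The members and lists were chosen with earlier results of these data known. Named genes are the 20 leading by CPM and by TPM, the 4 highest per length in each list, its defining members under 0.1 CPM, the 10 with the largest excess spread at 10 CPM or more, all members of lists under 15 genes and a fixed set of 14. Other named genes, and the pattern for ribosomal genes, were chosen after their values were seen. Some genes of the lists are counted but not reported here by name.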

Additional observations from a re-analysis of the deposited data

How the results depend on the processing

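Scaling by TMM (effective library sizes of edgeR) or DESeq2 size factors moved the level of each of 241 named genes to between 99.9% and 100.2% of its value, and totals without mitochondrial genes to between 101.20% and 101.24% of it. With those totals the 10 leading genes held 6.35% of counts in place of 6.42%, and with the longest transcript as length they held 8.16% of TPM in place of 9.09%. Expressed genes numbered from 10977 (2 CPM) to 12934 (1 TPM), and 11899 to 11929 with 1 replicate left out. Of 1382 members outside the olfactory receptors 621 were expressed, from 589 at 2 CPM to 660 at 0.5 CPM. The count moved by over 1.5 times in 7 cases, all at other limits: at 2 CPM to 2 CC chemokines, 2 keratins, 1 Gata and 1 Fgf gene, and at 0.5 CPM to 2 chemokine receptors, 4 Wnt and 4 olfactory receptor genes. At most 3 counts as the limit for silence gave 30016 genes. The median SD was 3.45% of the mean under both scalings and ran from 2.07% to 3.60% with 1 replicate left out, the lowest without replicate 3. Adding genes with several windows moved the median CpG ratio of expressed genes from 0.769 to 0.756. The spread and window alternatives were chosen after seeing the data. Among the 241 levels, leaving out replicate 2 moved Krt5 from 0.0460 to 0.0236 CPM, the only move of over 1.5 times. With 1 replicate left out in turn, a level moved by over 1.5 times in 0 of the 621 expressed members and in 226 of the 487 that had counts but were not expressed. Pycard (2 counts) and Tnf (4 counts) are at 0 without replicate 3, which holds all of them. No paired analysis was possible because the values are levels of 1 group and come from no test. Of 759 members that were not expressed, 21 share over 50% of their 50-base stretches with another gene and 472 share none.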

Other observations

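Of 20 aldehyde dehydrogenases 11 were expressed, led by Aldh18a1 (proline synthesis, 194 TPM), Aldh1l2 (mitochondrial folate metabolism, 89.4 TPM), Aldh9a1 (74.6 TPM) and Aldh3a1 (71.1 TPM). The genes that make retinoic acid, often used to mark mammary stem cells, were not expressed: Aldh1a1 had 0.396 CPM, Aldh1a3 0.101 CPM and Aldh1a2 0.00864 CPM. Of 22 actins and tubulins 12 were expressed, led by Actb (6149 TPM), Tubb5 (2263 TPM), Tubb4b (747 TPM) and Tuba1b (660 TPM), while the muscle actins Acta1 and Actc1 had 0.107 and 0.0289 CPM. Actg1, at 498 TPM, shares 56.7% of its 50-base stretches with other genes.

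Of 15 long noncoding and imprinted genes 5 were expressed, with Gas5 at 227 CPM, Malat1 at 129 CPM and Neat1 at 96.8 CPM. The imprinted genes H19, Meg3, Peg3 and Dlk1 had no count, and Igf2 and Mest had 0.00524 and 0.0195 CPM. Igf2 shares 75.9% and Mest 33.0% of their 50-base stretches with other genes, so part of their reads may not have been counted. On the Y chromosome 1 of 1554 genes was expressed, Gm47283 with 30.4, 31.4 and 33.0 CPM, and the summed level of that chromosome was 32.0 CPM. None of the 8 listed Y-linked genes was expressed, and whether the reads of Gm47283 come from another place in the genome was not tested. Gm47283 was named after its value was seen.

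Several products that work in pairs had 1 partner expressed in all 3 libraries and the other not. They were Krt8 without Krt18 (1077 and 0.212 TPM), Itgb2 without Itgal (670.1 and 0.123 TPM), Il18rap without Il18r1 (14.97 and 0.0129 TPM) and Aim2 without Pycard (52.0 and 0.00789 TPM). These pairs were picked after their values were seen and their cause was not tested.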
